A study of Mus musculus with 6 samples.

Results

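Immunoglobulin variable (V) genes were taken as the rows of the count table whose gene name starts with Ighv (heavy chain), Igkv (kappa light chain) or Iglv (lambda light chain). The table listed 346 such rows among 57010, and 247 of them had a count in at least 1 library. The genes described here were selected on their own counts, as the V genes with a sum of at least 60 reads over the 6 libraries. This kept 144 genes, which were 69 of 183 Ighv rows, 72 of 160 Igkv rows and all 3 Iglv rows. Of the remainder, 103 rows had 1 to 59 counts in all and 99 had none. At the edge of the threshold, Ighv3-5 (62 counts), Ighv9-1 (63), Igkv5-45 (64), Igkv3-12 (64) and Igkv4-69 (68) lay just inside. Ighv1-61 (57), Igkv3-1 (55), Ighv2-6 (54), Igkv4-58 (52), Igkv8-18 (51) and Igkv4-79 (50) lay just outside.

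RNA was sequenced from bone marrow monocytes of C57BL/6 mice (C57Bl/6J, of both sexes, in the study's methods) at 1 year of age, without treatment or transgene in either group. Libraries S13, S15 and S18 were femur-derived monocytes, and S16, S19 and S23 were mandibular-derived monocytes, 3 in each group. The enrichment was a negative selection, where cells bound by antibodies stay on a magnetic column and unbound cells are kept, so B-lineage cells that escape the column remain in the sample. The study asked how the marrow of a jaw bone and of a long bone differ in their monocytes.

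An antibody is made of heavy and light chains, and each chain starts with a variable region that binds antigen. A B cell assembles that region by joining 1 V gene to a joining segment (and, in the heavy chain, a diversity segment) and then uses the same V gene in all its descendants. The mix of V genes in a sample therefore depends on which B-cell clones are in it, and a plasma cell, the antibody-secreting end stage found in bone marrow, carries far more of this RNA than a resting B cell. Monocytes make no antibody. In bulk RNA, fewer cells of a type and less RNA per cell cannot be told apart.

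The libraries held 15718782 to 25371474 counts on genes. Ribosomal RNA rows such as Rn18s-rs5, an 18S ribosomal RNA gene, together took 4.81 to 12.2% of them. A count of 0 allows up to 3 counts, or 0.133 to 0.172 CPM (counts per 1000000 counts, scaled by TMM, the trimmed mean of M values), which covers counting error only. Femur S15 stood apart with 40494 genes with a count against 17481 to 23513 in the other libraries. Mandible S23 stood apart with 1441 CPM of Xist, the RNA of the inactive X chromosome, against at most 0.553 CPM elsewhere. It had no count for 4 Y-linked genes, which had 2772 to 4590 counts in each other library. By these genes S23 alone had the pattern of female cells, so sex was not balanced between the sites. The part of sex in the differences was not tested. The summed CPM of 14 monocyte markers such as Csf1r and Lyz2 was 8897 to 15458 in femur libraries and 7490 to 13077 in mandible libraries. Markers of other cells differed between the groups. The sum of 6 ameloblast and dental epithelium genes was 0.221 to 2.99 CPM in femur libraries and 5769 to 11296 CPM in mandible libraries, and that of 11 mesenchymal and osteoblast genes was 341 to 440 against 8895 to 15235 CPM. Markers of megakaryocytes and platelets, of erythroid cells and of neutrophils were mostly lower in the mandible. Those of T cells, natural killer cells and plasmacytoid dendritic cells were not, with median log2 fold changes of 0.24, 1.46 and 0.78. The sum of 6 megakaryocyte and platelet genes was 529 to 850 against 72.02 to 104 CPM (4 of 5 tested genes called lower), and that of the erythroid genes was 228 to 1540 against 97.7 to 165 CPM (4 of 7 called lower). The 9 neutrophil genes, with 1 called lower, summed to 3676 to 32692 against 3873 to 10230 CPM, and all had log2 fold changes below 0 (median -1.57). The part of these cells in the V gene differences was not tested.

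The heavy chain V genes lie on chromosome 12 between 113572927 and 116010093, the kappa genes on chromosome 6 between 67555497 and 70704177, and the lambda genes on chromosome 16 between 19085017 and 19260859 (GENCODE M21 on GRCm38). All 69 Ighv genes described lie on the minus strand, while 26 of the 72 Igkv genes lie on the plus strand and 46 on the minus strand. All 144 matched M21 by Ensembl identifier, and 1 of them, Ighv1-41, is annotated there as a pseudogene.

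The sequences that matter most are those of the gene with the highest mean level per kilobase over all 6 libraries in the heavy and in the kappa chain, Ighv11-2 (chr12:114048241-114048812, minus strand) and Igkv14-126 (chr6:67896172-67896642, plus strand). Their last 300 transcript bases are shown 5′ to 3′ from the M21 transcripts. The capitals mark the codon of the conserved cysteine near the 3′ end of the V gene. A further 8 bases of the V gene follow it in Ighv11-2 and 23 bases in Igkv14-126.
Ighv11-2: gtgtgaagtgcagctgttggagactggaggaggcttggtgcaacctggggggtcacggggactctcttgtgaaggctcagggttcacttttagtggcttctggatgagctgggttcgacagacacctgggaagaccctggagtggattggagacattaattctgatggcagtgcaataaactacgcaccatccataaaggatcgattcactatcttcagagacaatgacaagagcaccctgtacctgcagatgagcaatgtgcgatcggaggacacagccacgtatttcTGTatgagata
Igkv14-126: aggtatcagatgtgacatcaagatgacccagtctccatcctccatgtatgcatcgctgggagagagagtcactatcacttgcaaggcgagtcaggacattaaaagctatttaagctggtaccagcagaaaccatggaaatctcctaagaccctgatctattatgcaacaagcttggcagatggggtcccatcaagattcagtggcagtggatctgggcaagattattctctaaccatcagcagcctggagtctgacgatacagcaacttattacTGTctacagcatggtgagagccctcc

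The other 3 V genes that passed the test between the sites were Ighv5-16 (chr12:113838526-113839010, minus strand), Ighv1-58 (chr12:115312166-115312599, minus strand) and Igkv1-88 (chr6:68862265-68863031, minus strand). Their 3′ ends are shown with the cysteine codon in capitals.
Ighv5-16: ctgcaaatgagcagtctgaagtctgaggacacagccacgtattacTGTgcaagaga
Ighv1-58: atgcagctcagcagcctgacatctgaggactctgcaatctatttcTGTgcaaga
Igkv1-88: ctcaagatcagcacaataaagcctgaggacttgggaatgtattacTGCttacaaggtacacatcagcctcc

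Genes that were high in a single library are shown for the same region, because libraries of 1 site differed in them. They were Ighv7-4 (chr12:114222788-114223328), Ighv1-81 (chr12:115920279-115920712), Ighv1-4 (chr12:114487136-114487569) and Ighv1-36 (chr12:114879888-114880321) on the minus strand and Igkv16-104 (chr6:68425575-68426072) on the plus strand.
Ighv7-4: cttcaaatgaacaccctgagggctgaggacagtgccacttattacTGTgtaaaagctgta
Ighv1-81: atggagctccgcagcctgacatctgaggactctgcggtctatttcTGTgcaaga
Ighv1-4: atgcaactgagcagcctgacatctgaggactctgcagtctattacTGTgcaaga
Ighv1-36: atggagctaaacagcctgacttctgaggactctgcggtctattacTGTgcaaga
Igkv16-104: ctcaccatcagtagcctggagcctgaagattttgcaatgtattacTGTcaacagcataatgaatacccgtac

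V genes are close relatives, and reads of 50 bases can match more than 1 of them. Of the 69 Ighv genes, 64 shared at least 1 window of 50 bases with another M21 transcript, with a median of 20.9% of their windows, and 5 shared over 50%. Among the 72 Igkv genes these numbers were 56, 27.3% and 12. Igkv14-126, Ighv5-16, Igkv1-88, Igkv16-104 and Ighv7-4 shared no window with any other transcript. Ighv1-58 shared 4.30% of its windows, and Ighv11-2 shared 38.6%, all with Ighv11-1, a neighbour that itself had only 8 counts. Values of genes with shared windows are uncertain to the extent that the counting could split their reads.

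V gene RNA was a small part of every library. The 144 genes together took 0.131% (S13), 0.0716% (S15) and 0.157% (S18) of the counts in femur-derived monocytes and 0.0533% (S16), 0.0787% (S19) and 0.0663% (S23) in mandibular-derived monocytes. The 2 highest libraries were both from the femur, but femur S15 lay below mandible S19, so the groups overlapped.

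The 69 heavy chain genes summed to 460, 225 and 601 CPM in femur libraries S13, S15 and S18, and 253, 289 and 197 CPM in mandible libraries S16, S19 and S23. The means were 429 ± 190 and 246 ± 46.6 CPM (SD, n = 3 each), a log2 ratio of -0.80. The 72 kappa genes summed to 959, 400 and 1104 CPM for the femur and 285, 447 and 385 CPM for the mandible, with means of 821 ± 372 and 372 ± 81.6 CPM and a log2 ratio of -1.14. The 3 lambda genes summed to 34.3, 28.4 and 56.5 CPM for the femur and 11.2, 29.1 and 14.1 CPM for the mandible, with means of 39.7 ± 14.8 and 18.1 ± 9.60 CPM and a log2 ratio of -1.13. In each chain the mean was lower in the mandible, and in each chain femur S15 lay below mandible S19. Without femur S18, the highest library, the log2 ratios were -0.48 (heavy), -0.87 (kappa) and -0.79 (lambda), so that the heavy chain value depended on this library by over 1.5 times.

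**Figure D1:**
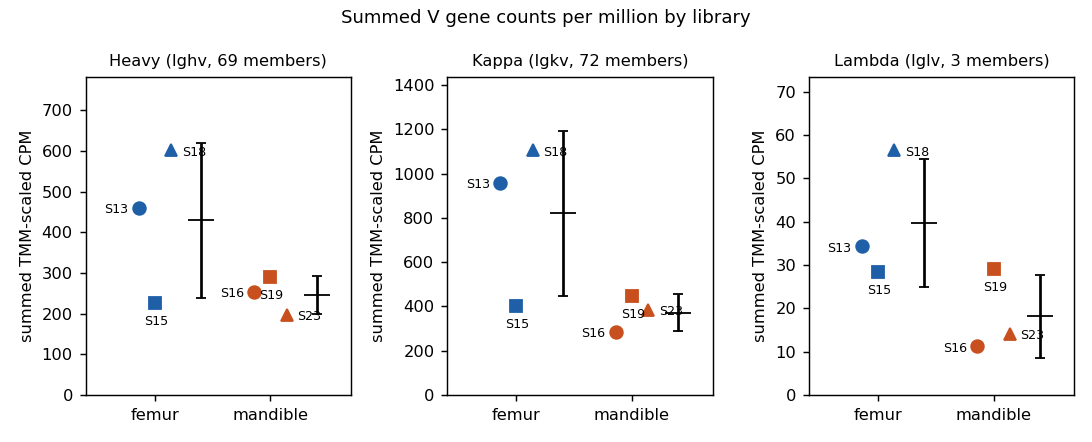
Summed TMM-scaled CPM (y axis) of the heavy, kappa and lambda V genes in each femur (blue) and mandible (orange) library, with bars for the mean ± SD of 3 libraries. Femur S13 and S18 lie above all mandible libraries in the 3 panels, while femur S15 lies below mandible S19.

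The balance between chains differed less than their sums. Lambda genes took 3.30%, 6.28% and 4.66% of the light chain V counts per kilobase in the femur libraries and 3.59%, 5.86% and 3.38% in the mandible libraries, that is 4.74 ± 1.49% and 4.28 ± 1.37% (SD, n = 3 each). The ranges overlapped almost entirely. The ratio of light chain to heavy chain V counts per kilobase was 2.28, 1.97 and 2.004 in the femur and 1.21, 1.63 and 2.06 in the mandible, where S23 lay among the femur values.

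Genes were compared by the quasi-likelihood test of edgeR, with p-values adjusted by Benjamini-Hochberg over all 18114 tested genes, and called at an adjusted p under 0.05 and a change of at least 2-fold, with the femur as baseline. Of the 144 V genes, 130 passed the filter on low counts and were tested (62 heavy, 65 kappa and 3 lambda), and 14 were not, among them Ighv7-4 and Ighv1-36, which were high in 1 library only. None was called higher in mandibular-derived monocytes (0 also with DESeq2 and with limma-voom), against 3.88% of all tested genes, and 1 V gene, Ighv1-50, had an unadjusted p under 0.05 in that direction (log2 fold change 1.497, adjusted p = 0.28, edgeR quasi-likelihood test, Benjamini-Hochberg adjusted, named after its values were seen). Called lower were 5 (3 heavy, 2 kappa, 0 lambda), which is 3.85% of the tested V genes against 1.3% of all tested genes. The number called lower was 9 with DESeq2, 3 with limma-voom and 16 without a filter on low counts. A gene without any mandible count could pass the filter only through the femur libraries, where it is high. Of the tested V genes 3 were of this kind, and they include 2 of the 5 called lower, Igkv1-88 and Ighv1-58, so the share of 3.85% supports nothing about V genes as a group. At an unadjusted p under 0.05 there were 17 V genes, 16 of them lower, which is 13.1% against 16.4% of all tested genes.

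The fitted log2 fold changes lay mostly below 0. Of the 130 tested V genes 102 (78.5%) had a value below 0, against 52.2% of all tested genes. The count was 45 of 62 heavy, 54 of 65 kappa and 3 of 3 lambda genes, and the medians were -0.67, -1.07 and -1.20, beside -0.04 over all tested genes. Single V genes were measured imprecisely, with a median standard error of 1.25 on the log2 scale against 0.50 over all tested genes. The 3 femur libraries lay wholly above the 3 mandible libraries in 21 V genes (8 heavy, 12 kappa, 1 lambda), or 16.2%, against 11.5% of all tested genes. The opposite held in 2 V genes, both of the heavy chain, while the share over all tested genes was 12.7%. Some of the 21 genes had few or no mandible counts and could pass the filter on low counts only through the femur libraries. Examples are Igkv1-88, Ighv1-58 and Igkv13-84 (31, 18 and 238 counts in the femur against 0, 4 and 0). Their direction was fixed by the filter, so the shares of 78.5% and 16.2% support nothing about V genes as a group.

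**Figure D2:**
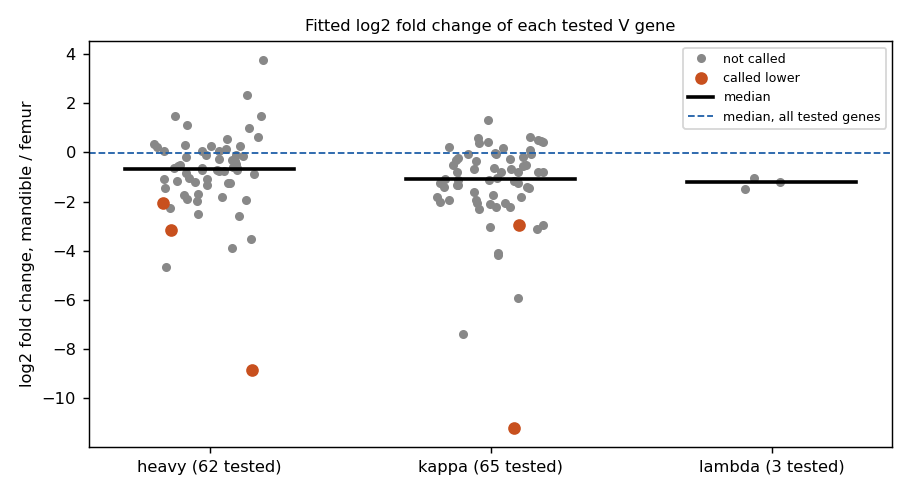
Fitted log2 fold change of mandible over femur (y axis) of each tested V gene, by chain, with called genes in orange, the chain median as a black line and the median of all tested genes as a dashed line. The 3 medians lie at -0.67, -1.07 and -1.20, and the 5 called genes are all below 0.

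Ighv11-2 was the most abundant heavy chain V gene per kilobase (112 CPM per kilobase on average). It is known for its pairing with Igkv14-126 in a receptor that binds phosphatidylcholine, a recurrent specificity of B-1a cells, which are self-renewing B cells that make natural IgM. The gene had 2195, 704 and 2160 counts in femur S13, S15 and S18 and 675, 214 and 284 counts in mandible S16, S19 and S23. In CPM these were 121, 32.4 and 95.4 against 33.8, 10.2 and 16.2, so S15 fell just below S16 and the groups overlapped at this point. It fell by 2.05 on the log2 scale (standard error 0.52, adjusted p = 0.045, edgeR quasi-likelihood test, Benjamini-Hochberg adjusted). This call was lost without femur S13 (adjusted p = 0.21), femur S18 (0.14), mandible S19 (0.17) or mandible S23 (0.16) in the same edgeR test.

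Igkv14-126 had the highest mean over the 6 libraries of all V genes (221 CPM per kilobase), which rests on the femur. Its mean was 392 CPM per kilobase in the femur, the highest there, and 50.3 in the mandible, where Igkv12-89 (85.6), Igkv19-93 (74.6), Igkv5-39 (65.9) and Igkv12-46 (50.9) were higher. It had 4819, 949 and 2507 counts in the femur libraries and 411, 317 and 322 counts in the mandible libraries. Every femur library lay above every mandible library, at 266, 43.7 and 111 CPM against 20.6, 15.1 and 18.4 CPM. The gene fell by 2.96 on the log2 scale (standard error 0.54, adjusted p = 0.0077, edgeR quasi-likelihood test, Benjamini-Hochberg adjusted). The adjusted p was 0.070 without mandible S19 and passed without each of the other libraries. The exact two-sided permutation test gave p = 0.1, the smallest that 3 against 3 libraries allow.

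Both genes also took a smaller share of their own chain. The shares come from the same counts as the calls and are given as a description. Ighv11-2 made up 22.1%, 11.8% and 13.2% of the heavy chain V counts per kilobase in the femur libraries and 10.96%, 2.80% and 6.68% in the mandible libraries. Igkv14-126 made up 28.3%, 11.1% and 10.3% of the kappa V counts per kilobase in the femur libraries and 7.37%, 3.48% and 4.89% in the mandible libraries. In neither gene did the shares of the groups overlap. Bulk RNA does not show which heavy and light chains came from the same cell.

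A further receptor of B-1a cells with this specificity pairs Ighv12-3 with Igkv4-91, and both were looked at after the values were seen. Ighv12-3 had 1, 0 and 22 counts in the femur and 0, 1 and 0 in the mandible, below the threshold of 60. Igkv4-91 had 266, 148 and 303 counts in the femur libraries and 0, 289 and 0 in the mandible libraries. Mandible S19 reached the level of the femur libraries, while S16 and S23 had no read of this gene, and the fitted log2 fold change was -1.34 (adjusted p = 0.76, edgeR quasi-likelihood test, Benjamini-Hochberg adjusted).

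Ighv5-16 had 497, 588 and 222 counts in the femur libraries and 48, 44 and 48 in the mandible libraries. The mandible libraries were almost equal at 2.41 ± 0.328 CPM, and the femur libraries were spread at 21.5 ± 10.1 CPM (SD, n = 3 each). The gene fell by 3.15 on the log2 scale (standard error 0.51, adjusted p = 0.0041, edgeR quasi-likelihood test, Benjamini-Hochberg adjusted), and this call held without each library in turn. Its share of the heavy chain V counts per kilobase was 6.06%, 12.0% and 1.65% in the femur and 0.945%, 0.700% and 1.37% in the mandible. Ighv5-16 was the leading heavy chain gene of femur S15 only.

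Igkv1-88 and Ighv1-58 had no read in any mandible library, so both entered the test through their femur counts. Igkv1-88 had 135, 746 and 62 counts in the femur libraries, with most in S15, and was at least 96.0-fold lower in the mandible, where 3 counts were taken as the limit in each library (adjusted p = 0.0041, edgeR quasi-likelihood test, Benjamini-Hochberg adjusted). Femur S15 held 77.1% of its summed CPM, and without S15 the limit was at least 33.0-fold lower. With limma-voom the adjusted p was 0.11. Ighv1-58 had 85, 44 and 43 counts in the femur libraries and was at least 18.6-fold lower (adjusted p = 0.031, edgeR quasi-likelihood test, Benjamini-Hochberg adjusted). The latter call was lost without femur S13 (adjusted p = 0.23), femur S18 (0.091), mandible S19 (0.093) or mandible S23 (0.055) in the same edgeR test.

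**Figure D3:**
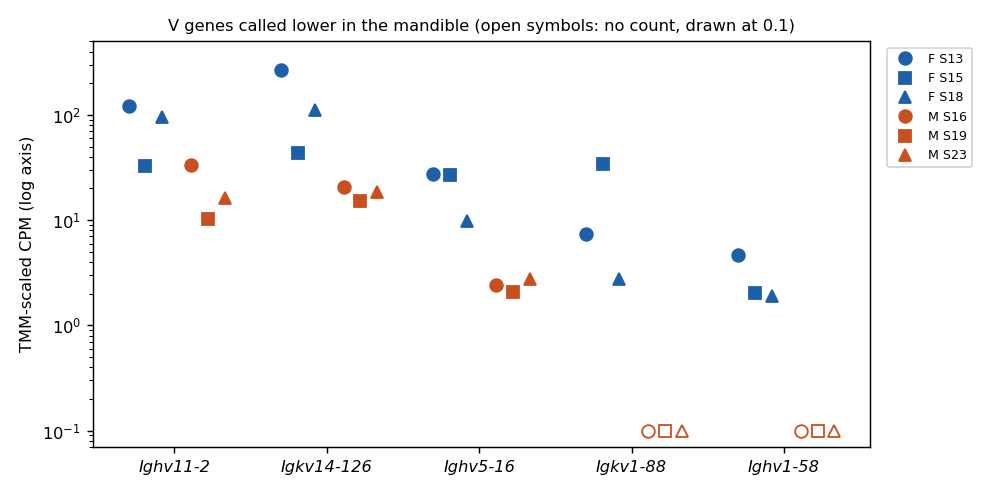
TMM-scaled CPM (log y axis) of the 5 V genes called lower in the mandible in each library, with femur libraries in blue, mandible libraries in orange and open symbols for libraries without a count. The mandible libraries lie below the femur libraries except for Ighv11-2, where mandible S16 (33.8 CPM) is just above femur S15 (32.4 CPM).

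Several V genes were high in 1 library only. In 24 of the 130 tested V genes (18.5%) over 50% of the summed CPM came from 1 library, against 7.67% of all tested genes. Over all 144 V genes such a library was femur S13 in 10, S15 in 4 and S18 in 13 genes, and mandible S16 in 2, S19 in 2 and S23 in 3 genes.

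Femur S18 held the most of them. Ighv7-4 had 6, 1 and 1414 counts in the femur libraries and 0, 10 and 0 in the mandible libraries, so that 98.7% of its summed CPM lay in S18. Ighv1-81 had 91, 32 and 1162 counts against 11, 36 and 0, and Ighv1-47 had 9, 3 and 120 counts against 0, 4 and 0. Igkv16-104 had 152, 232 and 4583 counts against 0, 270 and 0, and took 17.9% of the kappa V counts per kilobase of S18, ahead of Igkv14-126. Igkv13-84 had 31, 18 and 238 counts against 0, 4 and 0. None of these genes was called (adjusted p = 0.088 for Ighv1-81, 0.23 for Igkv16-104 and 0.074 for Igkv13-84, edgeR quasi-likelihood test, Benjamini-Hochberg adjusted), and Ighv7-4 and Ighv1-47 were not tested. Other settings called some of these genes lower. Without a filter on low counts the adjusted p was 7.2e-12 for Ighv1-81, 6.6e-24 for Igkv16-104 and 0.0029 for Igkv13-84 in the same edgeR test, while over the alternatives it reached 0.81, 0.96 and 0.65. Without femur S15, Ighv1-81 (0.018) and Igkv13-84 (0.033) were also called by edgeR, and DESeq2 called Igkv13-84 (0.0014).

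The constant region of the antibody class IgG2b, encoded by Ighg2b, was high in the same library. It had 1457, 698 and 11668 counts in the femur libraries and 1181, 2623 and 717 counts in the mandible libraries, with a log2 fold change of -1.48 (adjusted p = 0.42, edgeR quasi-likelihood test, Benjamini-Hochberg adjusted) that became 0.42 without S18. Over the alternatives the adjusted p of Ighg2b ran from 0.00013 to 0.93 (edgeR, DESeq2 or limma-voom, Benjamini-Hochberg adjusted). Ighm, the constant gene of IgM, took 70.7% of the heavy chain constant counts per kilobase in S18 and 87.5% and 91.6% in S13 and S15, against 81.2%, 67.5% and 90.6% in mandible S16, S19 and S23, so S19 had the lowest share.

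Other libraries also held genes that were high in them alone. Igkv5-43 had 1685 counts in femur S13 and 68 and 107 in the other femur libraries, against 22, 68 and 155 in the mandible, and 51.2% of its windows of 50 bases were shared with other transcripts. Igkv12-38 had 133 counts in femur S15, 9 and 23 in S13 and S18, and none in the mandible. In the mandible, Ighv1-36 had 500 counts in S16 and none in S19 and S23, with 87, 5 and 10 in the femur. Ighv1-4 had 467 counts in S23 and 0 and 1 in S16 and S19, with 9, 19 and 13 in the femur, and its log2 fold change of 3.76 (adjusted p = 0.34, edgeR quasi-likelihood test, Benjamini-Hochberg adjusted) turned to -4.49 without S23. Igkv1-132 had 68 counts in S19 and 14 in all other libraries together.

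The gene that led the chain changed from library to library. In the heavy chain it was Ighv11-2 in femur S13 (22.1% of the chain per kilobase), Ighv5-16 in S15 (12.0%) and Ighv11-2 in S18 (13.2%). In the mandible it was Ighv11-2 in S16 (10.96%), Ighv1-80 in S19 (8.49%) and Ighv1-4 in S23 (14.4%). In the kappa chain, Igkv14-126 led in femur S13 (28.3%) and S15 (11.1%) and Igkv16-104 in S18 (17.9%). In the mandible Igkv5-39 led in S16 (14.1%), Igkv12-46 in S19 (7.39%) and Igkv12-89 in S23 (18.04%). No kappa gene led in a library of both sites.

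**Figure D4:**
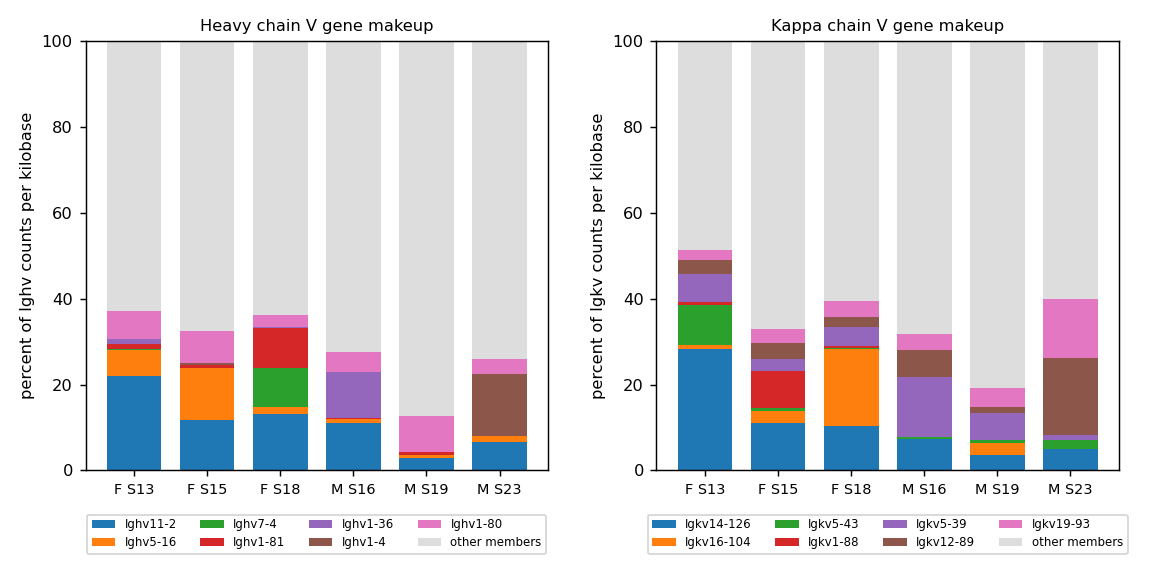
Percent of the heavy (left) and kappa (right) V gene counts per kilobase (y axis) taken by 7 genes of each chain and by all other members, in each femur (F) and mandible (M) library. Ighv11-2 and Igkv14-126 take the largest shares in femur S13 (22.1% and 28.3%) and smaller ones in the mandible, while Igkv16-104 in S18 and Ighv1-4 in S23 are wide in 1 library only.

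Other abundant V genes did not separate the sites. Igkv5-39 had 1071, 242 and 1076 counts in the femur libraries and 764, 559 and 67 in the mandible libraries, and Igkv12-89 had 523, 290 and 527 against 329, 132 and 1121. Igkv19-93 had 414, 294 and 909 counts against 205, 402 and 908. In the heavy chain, Ighv6-3 had 252, 270 and 355 counts against 435, 277 and 158, and Ighv1-80 had 498, 340 and 333 against 222, 493 and 109. Ighv1-53 had 319, 125 and 711 counts against 279, 213 and 144, and Ighv1-26 had 383, 152 and 410 against 210, 326 and 72. The groups overlapped in each of these 7 genes, and their log2 fold changes ran from -0.78 to 0.41.

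The 3 lambda genes all had fitted values below 0 and did not pass the test. Iglv1, the most abundant, had 405, 475 and 968 counts in the femur libraries and 153, 523 and 172 in the mandible libraries (log2 fold change -1.04, adjusted p = 0.31, edgeR quasi-likelihood test, Benjamini-Hochberg adjusted). Iglv2 had 188, 91 and 214 counts against 29, 83 and 56, and in CPM every femur library lay above every mandible library (log2 fold change -1.48, adjusted p = 0.28, same edgeR test). Iglv3 had 28, 50 and 96 counts against 42, 7 and 19 (log2 fold change -1.20, adjusted p = 0.70, same edgeR test). Iglv1 took 63.8 to 76.2% of the lambda V counts per kilobase in femur libraries and 67.4 to 84.5% in mandible libraries.

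By family, that is by sequence relatedness, the 69 heavy chain genes fell into 13 groups and the 72 kappa genes into 16. Ighv1, the largest family with 36 of the genes, made up 46.3%, 34.3% and 51.4% of the heavy chain V counts per kilobase in the femur libraries and 50.2%, 56.1% and 65.03% in the mandible libraries. The median log2 fold change of its 33 tested genes was -0.65, and 1 was called lower. Ighv5, with 7 genes including Ighv5-16, took 8.78%, 16.3% and 4.45% in the femur and 3.11%, 4.84% and 1.46% in the mandible, which overlapped, and summed to 40.5, 37.4 and 27.4 CPM against 8.41, 14.9 and 2.92 CPM, which did not. In summed CPM the femur libraries lay above the mandible libraries in 8 of the 32 families of all chains. These were Ighv5, Ighv8, Igkv1, Igkv4, Igkv13, Igkv14, Igkv15 and Iglv2. In share of the chain this held in 2, Ighv11 and Igkv13. Of these families, Igkv15, Iglv2 and Ighv11 held 1 gene each, so their values are those of a single gene. The mandible shares lay above the femur shares in Igkv12, with 7.55%, 13.02% and 8.83% in the femur and 15.2%, 14.2% and 21.9% in the mandible. The same held narrowly in Igkv3, with 3.807%, 2.84% and 3.76% against 10.6%, 6.38% and 3.812%. These family counts were not compared with other groups of genes. In the kappa chain, Igkv4 was the largest family with 17 genes, at 11.03%, 17.8% and 11.04% of the chain in the femur and 16.7%, 14.4% and 11.6% in the mandible. Igkv14, with 3 genes including Igkv14-126, took 32.9%, 14.6% and 12.8% in the femur and 13.4%, 8.27% and 6.31% in the mandible.

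The evenness of V gene use did not separate the sites. The effective number of genes, the inverse Simpson index of the shares per kilobase, is the number of equally used genes that would give the same evenness. It was 13.96, 18.9 and 19.6 in the heavy chain of the femur libraries and 18.6, 26.2 and 18.8 in that of the mandible libraries. In the kappa chain it was 9.82, 22.7 and 15.98 in the femur and 18.1, 30.0 and 13.3 in the mandible. Mandible S19 had the highest value in both chains, and femur S13, where Ighv11-2 and Igkv14-126 led, had the lowest. As a description, the CPM of the genes was compared between libraries by Spearman correlation. Over the 69 heavy chain genes it was 0.304 to 0.570 within a site and 0.359 to 0.679 between sites. Over the 72 kappa genes it was 0.565 to 0.720 within a site and 0.427 to 0.810 between sites. The ranges within and between sites overlapped in both chains, and the highest value of each chain was that of femur S18 with mandible S19.

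Fewer different V genes were seen in the mandible. Of the 247 V genes with a count in any library, 177, 220 and 164 had one in femur S13, S15 and S18 and 94, 141 and 101 in mandible S16, S19 and S23. At an equal depth of 10000 V counts, a measure added after seeing the data, the expected numbers were 170, 210 and 160 in the femur and 93.5, 139 and 101 in the mandible, and the groups did not overlap. This held without femur S15, since S13 and S18 lay above all mandible libraries. Among the 144 genes described, 143, 139 and 139 had a count in the femur libraries and 92, 128 and 93 in the mandible libraries. These genes were selected on summed counts, and some, such as Ighv9-1 and Igkv12-38, reached the threshold through femur counts alone. High detection in the femur was therefore partly set by the selection, and these last numbers are a description only. Libraries also differed in how many genes of the whole table had few counts, since 1 to 9 counts were found in 20.4%, 38.8% and 19.1% of the detected genes of the femur libraries and in 6.80%, 22.6% and 11.1% of those of the mandible libraries. The part of this in the V gene numbers was not tested.

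**Figure D5:**
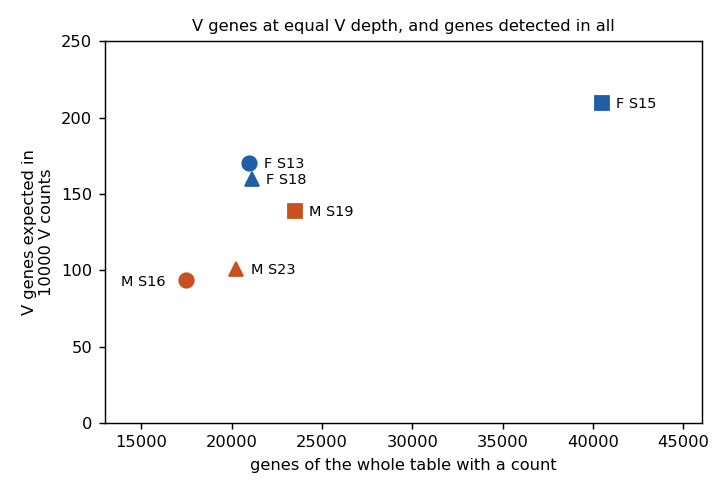
Number of V genes expected in 10000 V counts (y axis) against the number of genes of the whole table with a count (x axis), with 1 point per femur (F, blue) and mandible (M, orange) library. The femur libraries lie at 160 to 210 V genes and the mandible libraries at 93.5 to 139, and S15 stands apart on both axes.

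The constant genes, which are spliced to the V regions, also had fitted changes mostly below 0. Igkc, the kappa constant gene, had 22726, 14364 and 45658 counts in the femur and 10014, 19006 and 12410 in the mandible (log2 fold change -0.90, adjusted p = 0.33, edgeR quasi-likelihood test, Benjamini-Hochberg adjusted). Ighm had 23399, 19131 and 37958 counts against 22223, 17000 and 13449 (log2 fold change -0.52, adjusted p = 0.55, same edgeR test). Of the 12 constant genes 11 were tested, and 9 had a log2 fold change below 0. The only one called was the lambda constant gene Iglc3, which fell by 1.76 on the log2 scale (adjusted p = 0.024, same edgeR test) from 375, 1066 and 912 counts to 246, 264 and 133. That call was lost without femur S18 (adjusted p = 0.10), mandible S16 (0.060), mandible S19 (0.084) or mandible S23 (0.078) in the same edgeR test. Iglc2 and Iglc1 had log2 fold changes of -1.41 and -0.66 and were not called. Over the alternatives the adjusted p of Iglc2 ran from 0.0042 to 0.74 (edgeR, DESeq2 or limma-voom, Benjamini-Hochberg adjusted). Ighg2c and Igha, at 0.41 and 0.17, had values above 0. Ighe had 15, 16 and 0 counts in the femur and none in the mandible, and Ighd, Ighg1 and Ighg3 were not called. Of 14 joining segment rows, 5 were tested and none was called.

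Genes of plasma cells and of B cells were set beside the V genes. Jchain, which links IgM and IgA into polymers, had 10331, 5747 and 15602 counts in the femur and 4309, 7112 and 3319 in the mandible (log2 fold change -1.04, adjusted p = 0.18, edgeR quasi-likelihood test, Benjamini-Hochberg adjusted). Mzb1, a chaperone of antibody assembly, had 75, 23 and 83 counts against 0, 24 and 13. Of 24 genes of plasma cells and antibody secretion, 1 was called higher and 1 lower, with a median log2 fold change of -0.06. The higher one was Sdc1, the plasma cell surface proteoglycan that epithelial cells also carry, with 157, 184 and 274 counts against 644, 806 and 802 (log2 fold change 1.99, adjusted p = 0.0042, edgeR quasi-likelihood test, Benjamini-Hochberg adjusted). The lower one was Ssr4, a subunit of the translocon of the endoplasmic reticulum (log2 fold change -1.32, adjusted p = 0.014, same edgeR test).

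The B-cell markers Ms4a1 and Cd79a had low counts in both sites. The B-cell surface gene Ms4a1 had 23, 61 and 22 counts in the femur libraries and 24, 37 and 73 in the mandible libraries, and the groups overlapped. Cd79a, a signalling chain of the B-cell receptor, had 52, 32 and 83 counts against 55, 72 and 3. The median log2 fold change of the 19 tested B-cell genes was 0.35, with 13 above 0, and 1 was called, Ebf1, which was higher in the mandible (log2 fold change 1.89, adjusted p = 0.048, edgeR quasi-likelihood test, Benjamini-Hochberg adjusted) and is also a gene of mesenchymal cells. Of 12 genes of B-cell precursors, 7 were tested, 3 with log2 fold changes above 0 and 4 below (median -0.09). Only Lef1 was called, higher in the mandible (log2 fold change 2.39, adjusted p = 0.028, same edgeR test). The part of mesenchymal and dental cells in Lef1 was not tested. Dntt and Il7r also had values above 0 (0.82 and 0.85) but were not called, and their groups overlapped. The 12 genes summed to 38.8 to 73.96 CPM in femur libraries and 79.4 to 105 CPM in mandible libraries. These sums include Lef1, with 8.95, 2.95 and 4.42 CPM in the femur and 18.3, 18.04 and 48.9 CPM in the mandible. The separation of the sums was not tested without Lef1 and supports nothing about the other genes of the list. Vpreb1, the surrogate light chain gene of B-cell precursors, had 10 counts in femur S15 and none elsewhere. The recombinase gene Rag1 had 26, 17 and 21 counts in the femur and 0, 62 and 0 in the mandible.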

How the data were processed

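The 6 libraries held bulk RNA of enriched monocytes. Per the study's methods, the authors trimmed paired-end reads of 50 bases with Trimmomatic 0.33, mapped them with HISAT2 2.1.0 to GRCm38 and counted reads per gene with featureCounts, whose version and use of strand and of multiply mapped reads are not given in the sources used here. The deposited values are raw counts without normalization. The intervals in the table lay inside the M21 gene for only 3016 of 52029 shared genes, so positions and sequences came from GENCODE M21 by Ensembl identifier.

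The test was edgeR 4.0.16 in R 4.3.3, after TMM scaling and its filterByExpr function (count of 10, total of 15), by quasi-likelihood and with no covariates. Permutation tests used log2(CPM + 1) or shares. Alternatives were DESeq2 1.42.0, limma-voom (limma 3.58.1), RLE or no factors, TMM without technical genes, no filter, other thresholds, and each library left out. The members, lists and tests were chosen with earlier results of these data known. Named genes were the 5 most abundant per kilobase, the called and the 5 most concentrated in 1 library of each chain, those at the threshold, all constant genes, and the most abundant or called genes of the other lists, from which the text gives a part. The sources name no animal, sex or batch for a library, so p-values measure only the spread between these samples. Sex, which by Xist and Y-linked counts was not balanced between the sites, did not enter the test.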

Additional observations from a re-analysis of the deposited data

How the results depend on the processing

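Among the chain-level values and counts of calls under each alternative, 154 kept their direction and lay within 1.5 times the count or 1 SD of the value, 6 values moved further, and 4 counts rose and 3 fell by more than that. The number of V genes called lower (5) was 16 with no filter on low counts, 3 with limma-voom, 9 with DESeq2 and 8 at an adjusted p under 0.1, and 3 to 7 when 1 library was left out, with 3 without femur S18 or without mandible S23. The number called higher (0) was 1 with no filter and 0 to 0 when 1 library was left out. The median log2 fold change with limma-voom was -1.55 for heavy and -1.68 for kappa genes. Leaving out 1 library gave -1.20 (without mandible S19) to -0.41 (without femur S18) for heavy, -1.86 (without mandible S19) to -0.76 (without femur S18) for kappa and -1.78 (without mandible S19) to -0.71 (without femur S18) for lambda genes. The cause was not tested. Without normalization factors the median of all tested genes moved to 0.06, and 4 V genes were called lower. RLE factors also gave 4, and Ighv11-2 had an adjusted p of 0.052 with RLE and 0.053 without factors (edgeR quasi-likelihood test, Benjamini-Hochberg adjusted).

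Of single genes, none of which was called, these turned direction. With limma-voom, Ighv6-3 was at -0.0065, Ighv1-4 at -1.07, Igkv12-89 at -0.20 and Igkv19-93 at -0.14. When 1 library was left out, Ighv6-3 ranged from -0.33 to 0.26, Ighv1-4 from -4.49 to 4.34, Igkv12-89 from -0.997 to 0.84, Igkv19-93 from -0.85 to 0.57, Igkv5-43 from -3.998 to 0.16, Iglc1 from -1.20 to 0.077, Ighg2b from -2.11 to 0.42, Ighg1 from -1.41 to 0.54, Igha from -0.35 to 1.16 and Ighg2c from -0.22 to 1.15. In single genes, a call was gained under an alternative 14 times and lost 17 times. No paired analysis was possible because no source used here names the animal of a library and no library number occurs in both groups. Genes under 3 counts in a library are at its limit of detection.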
